A study of Mus musculus with 10 samples.

Results

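At 16 months of age, islets of mice labelled SIRT6 transgenic were compared with islets of control mice, 3 libraries against 3, out of 10 libraries in the series. The libraries were chosen by the age and genotype in their labels, all from the second batch, and every gene was considered. The series sequenced messenger RNA of mouse pancreatic islets at 10 and at 16 months, and its title asks how SIRT6 bears on beta cell survival and function in aging. The islets were freshly isolated, without culture and without treatment, from mice with the genotype WT or SIRT6 transgenic. The promoter that drives the transgene, and the cells in which it is active, are not given in the sources used here. The labels do not say whether replicates came from separate animals, so the p-values measure the spread between these samples.

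Islets are clusters of endocrine cells in the exocrine pancreas. Beta cells make insulin, fold and package it through the endoplasmic reticulum and Golgi apparatus, and release it when glucose closes their potassium channels. Alpha, delta and PP cells make glucagon, somatostatin and pancreatic polypeptide. Blood vessels, stellate cells and resident macrophages lie among them, and lymphocytes can gather at the islet border with age. SIRT6 is a nuclear deacylase that removes acetyl groups from histone H3, and it is known as a repressor of glycolytic and NF-kB target genes.

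The 16-month libraries held 35990145 to 55051016 counts, and 19218 of 56262 genes had enough counts to be tested. Levels below are CPM, read counts relative to the library total after TMM scaling, and fold changes are log2 values of labelled transgenic minus control. Insulin, glucagon, somatostatin and pancreatic polypeptide genes were counted in every library, and digestive enzyme genes of acinar cells summed to 26000 to 109000 CPM. Sirt6 stood at 6.92, 7.56 and 7.71 CPM in control libraries 1, 2 and 3 and at 8.03, 6.42 and 7.68 CPM in the labelled transgenic libraries. The groups overlapped, with a log2 fold change of -0.0026 ± 0.14 (SE), so this gene row does not set the labelled genotypes apart. Whether transcripts of the transgene are counted in it is not given in the sources used here.

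Most of the genes with an unadjusted p under 0.05 were lower in the labelled transgenic islets, and genes of lymphocytes, antigen presentation and dividing cells were among them. The genes on the higher side included a potassium channel and proteins of the endoplasmic reticulum and Golgi apparatus. By edgeR's quasi-likelihood test with Benjamini-Hochberg adjustment over all genes, 0 genes passed an adjusted p of 0.05, which is 0.0% in each direction, and the smallest adjusted p was 0.0675. Before adjustment, 349 genes had a p under 0.05 on the higher side (1.82%) and 1801 on the lower side (9.37%), and chance alone gives 960.9 in all. The labels do not pair the libraries, and a pairing by replicate number was inferred from weak correlations in these same data. With the replicate number as a block, here called the fit with pairs, 4 genes rose (0.0208%) and 284 fell (1.48%). Of the 284, 40 were on leukocyte lists, 18 on proliferation lists and 76 on any of the gene lists used here. Those lists held 913 of the 19218 genes tested. In deviations from the group means, 248 of the 284 had a correlation above 0.5 with the general leukocyte list. The share of all genes above that limit is not given here. Immunoglobulin or T cell receptor segments made up 12 of the 284. The same block on the 16-month libraries alone called 0 higher and 12 lower, with 930 higher and 2040 lower at an unadjusted p under 0.05. DESeq2 called 31 higher and 848 lower, and limma-voom with sample quality weights 4 higher and 218 lower. Scaling by total counts in place of TMM left 62 genes higher and 2128 lower at an unadjusted p under 0.05. Without control replicate 2 the fit with pairs called 0 genes, with 133 higher and 1079 lower at an unadjusted p under 0.05. In that fit the block absorbs labelled transgenic replicate 2 as well, so the contrast rests on the remaining pairs.

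**Figure D1:**
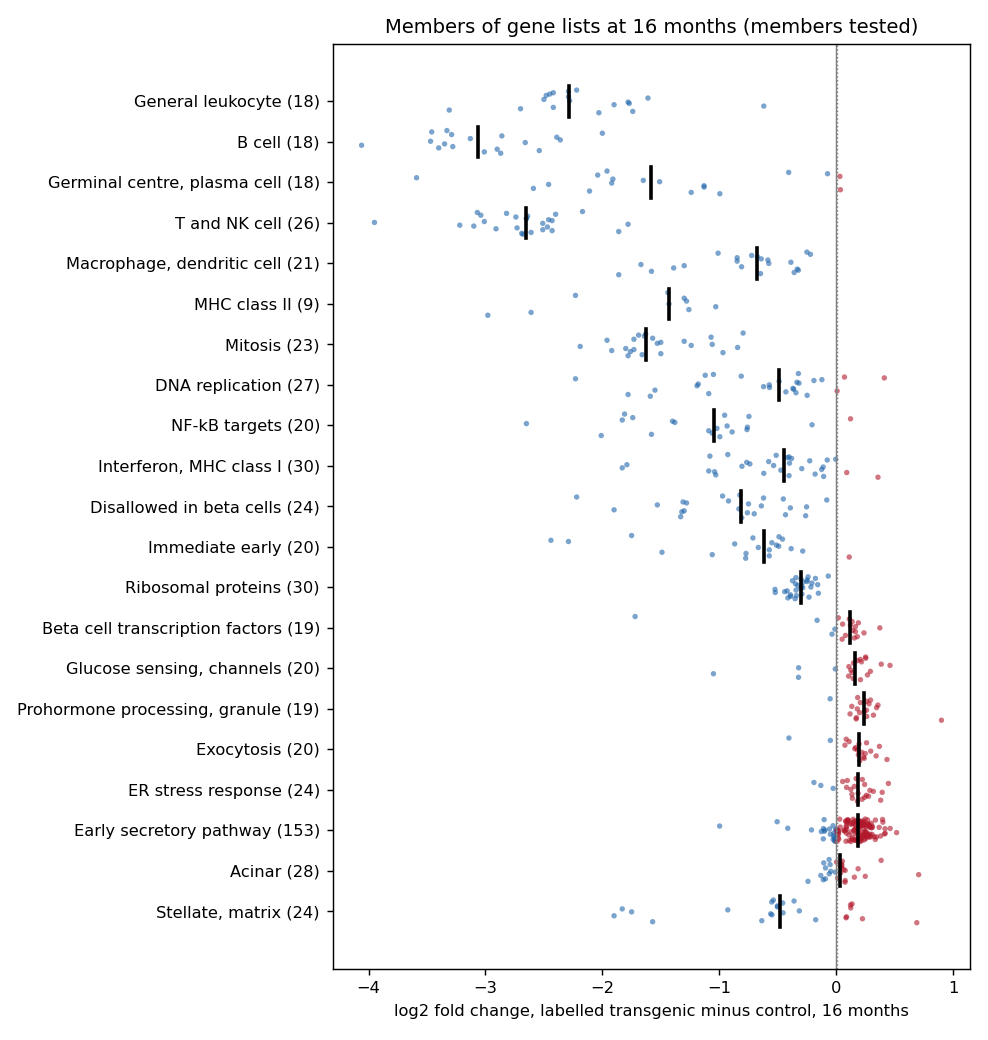
Log2 fold change (labelled transgenic minus control, 16 months) of every tested member of 21 gene lists, 1 point per gene, with the black bar at the list median and the number tested in brackets. Leukocyte and mitosis lists lie to the left of 0, with medians down to -3.07, and the beta cell, exocytosis and early secretory lists lie slightly to the right, with medians of 0.12 to 0.24.

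Leukocyte genes were lower in the labelled transgenic islets. All 18 general leukocyte genes tested were lower, with a median of -2.28. Over all genes tested the median was 0.0043, with 50.6% higher and 49.3% lower. Of them 14 fell in the fit with pairs, where 1.48% of all genes did, and 15 did not overlap between the groups, where 10.3% of all genes were lower without overlap. All 18 B cell genes (median -3.07) and all 26 T and NK cell genes (median -2.65) were also lower, and 14 and 5 of them fell with pairs. In whole-islet RNA, fewer leukocytes and less RNA per leukocyte cannot be told apart. Genes of lymphoid tissue stroma gave a median of -2.78 over 8 tested, with 6 lower, 2 higher and 0 called with pairs. At an unadjusted p under 0.05, 3 of the 8 were lower, where 9.37% of all genes were. The list median was -0.47 without control replicate 2.

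Pou2af1, a B cell coactivator on chromosome 9 (51213708 to 51240080, GRCm38), stood at 26.6, 44.4 and 36.2 CPM in the control libraries and at 6.12, 5.82 and 6.43 CPM in the labelled transgenic ones. Every labelled transgenic library was low and the groups did not overlap. The log2 fold change was -2.54 ± 0.33 (SE, n = 3 per group), with an edgeR adjusted p of 0.0675, and 0.0241 with pairs. Cd79a, the signalling chain of the B cell receptor, had 24.1, 93.6 and 70.8 CPM in the controls against 9.46, 16.2 and 10.2 CPM. Control replicate 1 lay nearest to the labelled transgenic libraries, and this held for Ikzf1, a lymphoid transcription factor, as well, at 19.5, 58.0 and 49.5 CPM against 6.54, 10.2 and 5.76 CPM. Both fell in the edgeR fit with pairs, with an adjusted p of 0.0337 each, while without pairs the adjusted p was 0.0802 for Cd79a, which was named after its values were seen, and 0.0675 for Ikzf1. Ptprc, the common leukocyte phosphatase CD45, had 44.1, 148 and 144 CPM in the controls and 15.5, 32.0 and 15.4 CPM in the labelled transgenic libraries.

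The spread between the controls was wide for these genes. The summed level of the 18 general leukocyte genes was 451, 1390 and 1240 CPM in control libraries 1, 2 and 3, and 210, 354 and 177 CPM in the labelled transgenic libraries. No member of the list was at 0 in all 6 libraries. Leaving out control replicate 1 raised the count of called genes from 0 to 955, and leaving out control replicate 2 left 0. The list median was -1.94 without control replicate 2.

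Of the 26 T and NK cell genes 9 were lower without overlap between the groups, where 10.3% of all genes were. The mean log2 CPM of the 26 was 0.65, 3.01 and 2.94 in the controls and -0.84, 0.83 and -0.86 in the labelled transgenic libraries. So control replicate 1 lay below labelled transgenic replicate 2. Zap70, a kinase of T cell receptor signalling, stood at 2.83, 8.84 and 9.16 CPM in the controls and at 0.831, 1.67 and 0.77 CPM in the labelled transgenic libraries, and it fell with pairs (edgeR adjusted p = 0.0347). Cd4 had 7.42, 21.9 and 22.1 CPM against 2.23, 4.63 and 1.34 CPM. In both genes control replicate 1 stood between the other controls and the labelled transgenic libraries. Genes of germinal centre and plasma cells gave a median of -1.58 over 18 tested, with 16 lower and 2 higher. Macrophage and dendritic cell genes gave a smaller median of -0.67, with all 21 lower. Of the 21, 2 fell with pairs, where 1.48% of all genes did.

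Antigen presentation genes were lower too. All 9 MHC class II genes were lower without overlap, where 10.3% of all genes were, and their median was -1.43. Where 1.48% of all genes fell with pairs, 1 of the 9 did. This was Ciita, the master activator of the class, at 12.1, 26.3 and 30.3 CPM in the controls and 4.37, 6.51 and 3.83 CPM in the labelled transgenic libraries (edgeR adjusted p = 0.0337 with pairs).

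**Figure D2:**
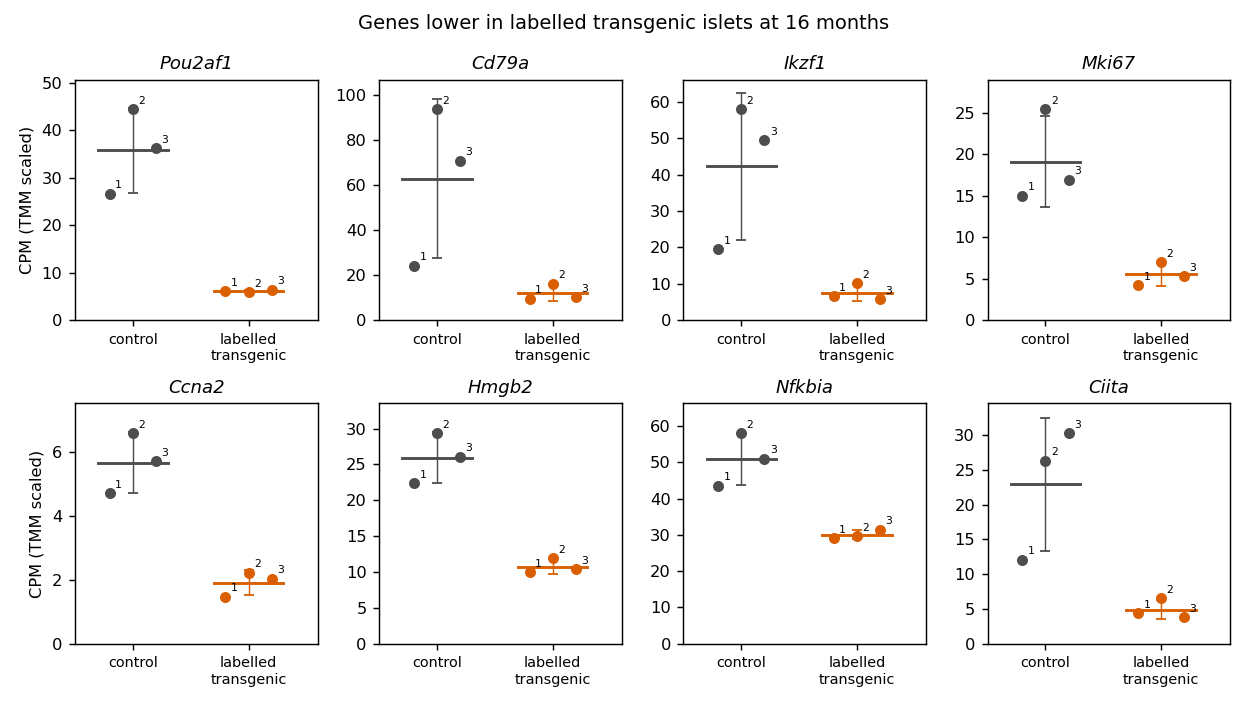
CPM in each 16-month library for 8 genes lower in the labelled transgenic islets; points are libraries with their replicate number, bars the mean and whiskers the SD of 3 libraries. In all 8 genes every labelled transgenic library lies below every control, and control 1 is the lowest control.

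Genes of dividing cells were lower as well. All 23 mitosis genes tested were lower, with a median of -1.63. All 23 were lower without overlap between the groups, where 10.3% of all genes were. In the fit with pairs 13 of them fell, where 1.48% of all genes did. Among 27 DNA replication genes 24 were lower and 3 higher, with a median of -0.49, and 5 fell with pairs. Mki67, which encodes the proliferation antigen Ki-67 (chromosome 7, 135689784 to 135716361), stood at 15, 25.4 and 16.9 CPM in the controls and at 4.21, 6.94 and 5.31 CPM in the labelled transgenic libraries. The groups were well apart, with a log2 fold change of -1.80 ± 0.27 (SE) and an edgeR adjusted p of 0.0675, and 0.0302 with pairs. Ccna2, cyclin A of S phase and mitotic entry, had 4.69, 6.58 and 5.70 CPM against 1.47, 2.22 and 2.03 CPM, and it too fell with pairs (edgeR adjusted p = 0.0337). Hmgb2, a chromatin protein abundant in dividing cells, had 22.4, 29.4 and 26.1 CPM against 10.0, 11.9 and 10.4 CPM and fell with pairs (edgeR adjusted p = 0.03).

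The mean log2 CPM of the mitosis list was 1.49, 2.04 and 1.66 in the controls and 0.072, 0.60 and 0.04 in the labelled transgenic libraries. Unlike the leukocyte list, the 3 controls lay close together. When the general leukocyte level entered the fit as a covariate, the mitosis median was -0.88 and the general leukocyte median -0.11, and 0 genes were called, with 111 higher and 282 lower at an unadjusted p under 0.05. That covariate largely follows the genotype, so the part of the leukocytes in the mitosis difference cannot be told apart from that of the genotype.

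Promoters of mitotic genes often carry a cell cycle homology region (CHR, TTTGAA) near CCAAT boxes. The 250 bases before the starts of 27025 genes (RefSeq, GRCm38.p6) were searched on both strands for 9 motifs. Of 19 mitosis genes with a promoter in the table, 7 held a CHR (36.8%) and 16 a CCAAT box (84.2%), against 18.3% and 37.5% of all genes. Both were present in 7 of the 19 (36.8%), against 7.34% of all genes. E2F sites were searched as TTTCCCGC (1.03% of all genes) and TTTGGCGC (0.485%), and 0 of the 19 held either, while each was in 2 of 23 DNA replication genes. The Mki67 promoter (chr7:135716450-135716589, minus strand) is shown because it holds both motifs, marked by capitals (TTTGAA, and CCAAT or its reverse ATTGG).
Mki67: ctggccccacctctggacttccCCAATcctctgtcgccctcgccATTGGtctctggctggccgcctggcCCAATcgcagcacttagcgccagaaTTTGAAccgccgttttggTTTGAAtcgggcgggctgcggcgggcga

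Targets of NF-kB and of interferon were lower as groups. Among 20 NF-kB targets 19 were lower, with a median of -1.04, and 6 fell with pairs, where 1.48% of all genes did. Among 30 interferon and MHC class I genes 28 were lower, with a median of -0.44, and 3 fell with pairs. Many of these genes are also active in leukocytes, whose markers moved with them. In the fit with the leukocyte covariate the medians were -0.13 and -0.08. That covariate largely follows the genotype, so the leukocytes' part in these differences cannot be told apart from that of the genotype.

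Nfkbia encodes the inhibitor that holds NF-kB in the cytoplasm and is itself an NF-kB target (chromosome 12, 55489410 to 55492647). It had 43.6, 58.1 and 51.0 CPM in the controls and 29.1, 29.7 and 31.4 CPM in the labelled transgenic libraries. The labelled transgenic libraries lay within a narrow band under all controls, with a log2 fold change of -0.76 ± 0.12 (SE) and an edgeR adjusted p of 0.0675, and 0.0427 with pairs. B2m, the light chain of MHC class I, had 241, 459 and 329 CPM against 172, 194 and 176 CPM, without overlap, and an edgeR adjusted p of 0.0868, and 0.0669 with pairs. B2m was named after its values were seen.

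The kappaB motif searched was GGGANNTTCC, and 5 of 15 NF-kB targets held it (33.3%), against 1.36% of all genes. The interferon-stimulated response element was searched as GAAANNGAAA, and 10 of 24 interferon and MHC class I genes held it (41.7%), against 3.46%. The octamer ATTTGCAT, in 1.81% of all promoters, was in 0 of 11 B cell and 0 of 9 germinal centre and plasma cell genes. The X box CCTAGCAACNNNTGG, in 0.0111%, was in 0 of 6 MHC class II genes. The stretches before the starts of Nfkbia (chr12:55492648-55492787, minus strand) and B2m (chr2:122147483-122147622, plus strand) are shown for the members of these lists with the smallest p that hold the motif, with every match to either motif in capitals, and the B2m stretch holds both.
Nfkbia: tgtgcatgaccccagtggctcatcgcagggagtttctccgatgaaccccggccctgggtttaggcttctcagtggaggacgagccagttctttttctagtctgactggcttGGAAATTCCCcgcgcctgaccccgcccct
B2m: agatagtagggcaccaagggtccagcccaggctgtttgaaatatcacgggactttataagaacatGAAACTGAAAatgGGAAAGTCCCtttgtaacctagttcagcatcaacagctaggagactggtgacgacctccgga

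**Figure D3:**
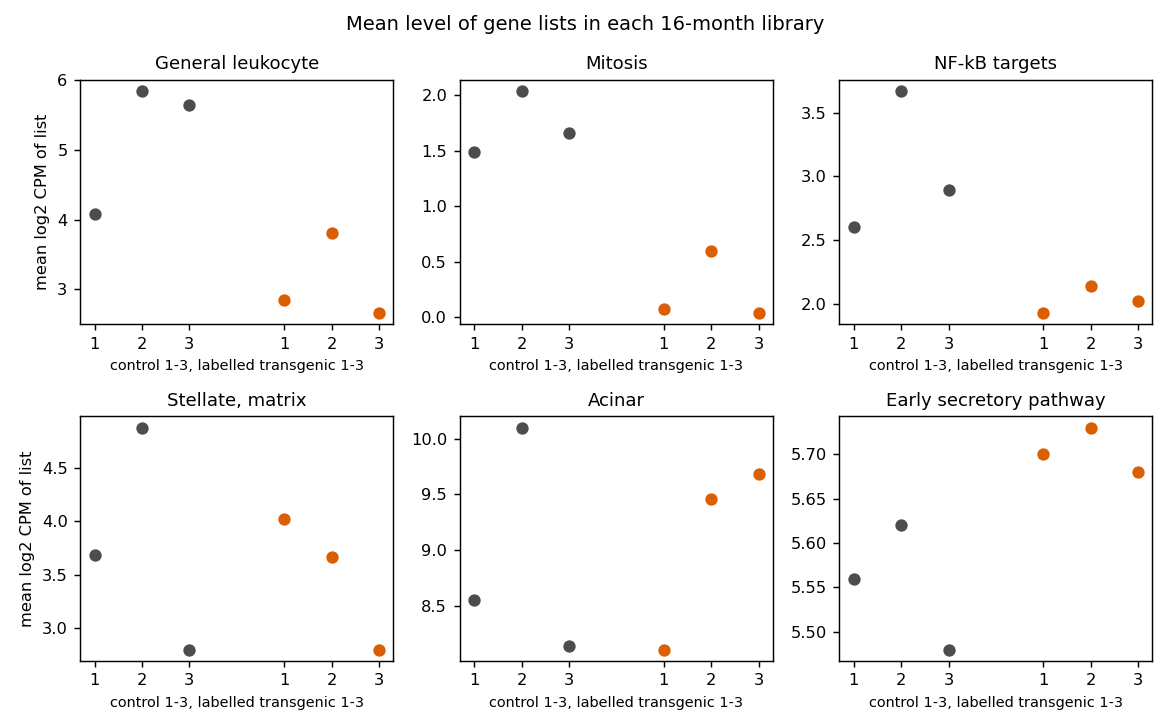
Mean log2 CPM of 6 gene lists in each 16-month library, controls in grey and labelled transgenic in orange. General leukocyte, mitosis and NF-kB lists are lower in all 3 labelled transgenic libraries, the early secretory list is higher in all 3, and the acinar and stellate lists overlap, with control 2 highest in both.

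None of the 8 hormone genes had an unadjusted p under 0.05. Ins2, the main insulin gene, had 185000, 111000 and 110000 CPM in the controls and 217000, 213000 and 135000 CPM in the labelled transgenic libraries, with overlap and a log2 fold change of 0.48 ± 0.31 (SE). Ins1 had 39900, 52600 and 51800 CPM against 46600, 47000 and 31300 CPM, a log2 fold change of -0.21 ± 0.24 (SE). So the insulin genes differed in sign, and both overlapped between the groups. Gcg, glucagon, gave -0.24 ± 0.24 (SE), Sst, somatostatin, -0.015 ± 0.26 (SE), Ppy, pancreatic polypeptide, -0.24 ± 0.48 (SE) and Iapp, islet amyloid polypeptide, 0.28 ± 0.21 (SE).

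Lists of beta cell genes were shifted slightly to the higher side. Of 19 beta cell transcription factor genes 15 were higher, with a median of 0.12, and of 20 glucose sensing and channel genes 16 were higher, with a median of 0.16. Among 19 prohormone processing and granule genes 18 were higher (median 0.24), and among 20 exocytosis genes 18 were higher (median 0.20). In none of these lists did a gene rise in the fit with pairs. On the transcription factor list 1 gene fell, Bach2, which is also a B cell factor, at 5.57, 11.2 and 10.9 CPM in the controls and 2.48, 3.10 and 2.78 CPM in the labelled transgenic libraries (edgeR adjusted p = 0.0337 with pairs). Mafa, a regulator of insulin transcription in mature beta cells, had 447, 341 and 426 CPM in the controls and 513, 493 and 568 CPM in the labelled transgenic libraries, without overlap, but its edgeR adjusted p was 0.37. Pdx1 had 178, 136 and 151 CPM against 186, 172 and 169 CPM, with overlap. Without control replicate 2 the medians were 0.023 for the transcription factors, 0.079 for glucose sensing and channels, 0.18 for prohormone processing and 0.12 for exocytosis. With the leukocyte covariate they were -0.14, -0.11, 0.060 and -0.017. Over the 9019 genes with a mean of at least 10 CPM the median was 0.052. All 24 genes disallowed in beta cells, which healthy beta cells keep silent, were lower, with a median of -0.82. Where 1.48% of all genes fell with pairs, 3 of the 24 did. These were Arhgdib, a gene abundant in leukocytes, Zfp36l1, an RNA-binding protein that promotes mRNA decay, and the hexokinase gene Hk1. Without control replicate 2 that median was -0.43, and it was -0.065 with the leukocyte covariate.

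Outside the leukocyte, dividing-cell and inflammation lists, 7347 genes had a mean of at least 10 CPM over all 10 libraries and a correlation within ±0.5 with the leukocyte list over the libraries' deviations from their group means. Their median was 0.06. Before adjustment, 230 had a p under 0.05 on the higher side (3.13%) and 86 on the lower side (1.17%), together 4.3%, under the 5% that the threshold itself allows. Without overlap, 918 were higher (12.5%) and 254 lower (3.46%). The genes named next have the smallest p-values of this set in each direction unless stated otherwise.

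On the lower side the smallest p belonged to Egr3, an immediate early transcription factor induced by calcium and growth signals (chromosome 14, 70077203 to 70082614). It had 5.75, 6.92 and 4.12 CPM in the controls and 1.36, 1.48 and 0.592 CPM in the labelled transgenic libraries, and it reached the mean of 10 CPM through the 10-month libraries, at 13.5 to 25.8 CPM. The lowest control was above the highest labelled transgenic library, with a log2 fold change of -2.29 ± 0.34 (SE) and an edgeR adjusted p of 0.0675, and 0.03 with pairs. Over the whole list of 20 immediate early genes 19 were lower, with a median of -0.62. But only Egr3 and Klf2, a quiescence factor of endothelium and lymphocytes, fell with pairs (2 of 20, where 1.48% of all genes did). Klf2 had 36.6, 82.0 and 31.3 CPM against 21.2, 20.9 and 11.2 CPM. The mean log2 CPM of the list was 6.20, 6.14 and 4.39 in the controls and 5.26, 5.03 and 4.53 in the labelled transgenic libraries, so control replicate 3 lay below all of them. The list median was -0.43 without control replicate 2 and -1.16 with the leukocyte covariate.

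Actb, cytoplasmic beta actin (chromosome 5, 142903115 to 142906754), was lower in every labelled transgenic library, at 530, 527 and 479 CPM, than in the controls, at 820, 1010 and 780 CPM. Its log2 fold change was -0.76 ± 0.14 (SE), and it fell with pairs (edgeR adjusted p = 0.0492, and 0.0675 without pairs). Mef2c, a transcription factor of muscle, neurons and B cells, had 31.3, 40.0 and 33.4 CPM against 18.9, 24.1 and 17.8 CPM and fell with pairs (edgeR adjusted p = 0.0386). Hk1, a low-Km hexokinase that beta cells normally keep low, had 20.2, 30.4 and 17.3 CPM against 13.5, 13.6 and 8.76 CPM and also fell with pairs (edgeR adjusted p = 0.046). All 3 genes are expressed in leukocytes as well. With the leukocyte covariate the log2 fold changes were -0.61 for Actb, -0.45 for Mef2c and -0.48 for Hk1. As that covariate largely follows the genotype, the leukocytes' part in these differences cannot be told apart from that of the genotype. Gadd45b, a stress response gene, had a log2 fold change of -0.66 ± 0.13 (SE), Pim1, a survival kinase, -1.01 ± 0.23 (SE) and Tgfbi, a matrix protein induced by TGF-beta, -0.78 ± 0.19 (SE). None of these 3 overlapped between groups, and none passed with pairs. Myc, listed among reported SIRT6 targets, had 11.8, 21.3 and 10.8 CPM against 7.16, 8.47 and 8.94 CPM, without overlap, with an edgeR adjusted p of 0.14. Of 16 reported SIRT6 targets tested 11 were lower and 5 higher, with a median of -0.10, and 0 passed with pairs. At an unadjusted p under 0.05, 2 of the 16 were lower, where 9.37% of all genes were. Of 21 glycolysis genes, Hk1 among them, 12 were lower and 9 higher, and 4 were lower at an unadjusted p under 0.05. The median of the 21 was -0.080, and -0.0078 with the leukocyte covariate.

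On the higher side, 4 genes rose in the fit with pairs over all libraries, and 0 did with pairs in the 16-month libraries alone. Kcnh1, a voltage-gated potassium channel of the ether-a-go-go family (chromosome 1, 192190774 to 192510159), had 17.6, 15.7 and 12.8 CPM in the controls and 33.3, 37.0 and 23.3 CPM in the labelled transgenic libraries. Every labelled transgenic library was above every control, with a log2 fold change of 1.02 ± 0.24 (SE) and an edgeR adjusted p of 0.0892, and 0.0499 with pairs. Tcf24, a basic helix-loop-helix factor (chromosome 1, 9960163 to 9967932), had 31.6, 31.1 and 21.3 CPM against 69.8, 81.4 and 32.0 CPM. Labelled transgenic library 3 was just above the controls and the other 2 were far above them, and the edgeR adjusted p was 0.0462 with pairs and 0.123 without. Both libraries with number 3 were the lowest of their group for both genes. Kcnh5, a channel of the same family, lay outside the set of 7347 genes, with a mean under 10 CPM. It had 3.24, 3.06 and 2.92 CPM against 7.32, 9.12 and 4.52 CPM, without overlap, and an edgeR adjusted p of 0.089 with pairs. Over the 8 Kcnh genes tested 6 were higher, with a median of 0.29, and this family was added after the values were seen. The median was 0.094 without control replicate 2 and -0.021 with the leukocyte covariate.

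The other 2 genes that rose were neighbours on chromosome 17 and lay outside the set of 7347 genes or its naming rule. Dynlt1b, a light chain of the dynein motor (6430112 to 6436296, plus strand), had 7.36, 6.02 and 6.55 CPM in the controls and 15.4, 14.1 and 12.3 CPM in the labelled transgenic libraries, an edgeR adjusted p of 0.0675, and 0.0337 with pairs. Tmem181b-ps, a pseudogene (6438524 to 6467022, minus strand), had 6.59, 6.82 and 12.8 CPM against 13.2, 13.4 and 26.9 CPM, and an edgeR adjusted p of 0.0307 with pairs and 0.234 without. For both the groups did not overlap, and Tmem181b-ps was named after its values were seen. The Dynlt1b value is uncertain, since 82.6% of the 75-base stretches of its longest transcript occur in its copies, and 29.7% of those of Tmem181b-ps do. The copies Dynlt1a, Dynlt1c and Dynlt1f, also named after their values were seen, overlapped between the groups, with log2 fold changes of 0.10, -0.22 and -0.081.

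Below these came smaller differences that did not pass with pairs but were tight between replicates. Impdh1, a rate-limiting enzyme of guanine nucleotide synthesis, had 80.9, 84.7 and 76.8 CPM in the controls and 106, 108 and 104 CPM in the labelled transgenic libraries, a log2 fold change of 0.39 ± 0.09 (SE). Pgm3, an enzyme of the hexosamine route to UDP-GlcNAc, had 39.0, 39.2 and 31.8 CPM against 54.0, 49.8 and 47.7 CPM, a log2 fold change of 0.46 ± 0.11 (SE). Neither gene overlapped between the groups, and the edgeR adjusted p-values were 0.0892 and 0.0942, and 0.142 and 0.0987 with pairs. Wfs1, a membrane protein of the endoplasmic reticulum whose loss causes Wolfram syndrome with diabetes, had 152, 147 and 133 CPM against 193, 184 and 185 CPM. Scfd1 and Rint1, factors of vesicle traffic between the endoplasmic reticulum and Golgi apparatus, had log2 fold changes of 0.40 ± 0.12 (SE) and 0.39 ± 0.10 (SE), also without overlap. Noct, a rhythmic phosphatase of NADP, gave 0.41 ± 0.10 (SE), and Jag2, a Notch ligand, 0.35 ± 0.10 (SE).

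**Figure D4:**
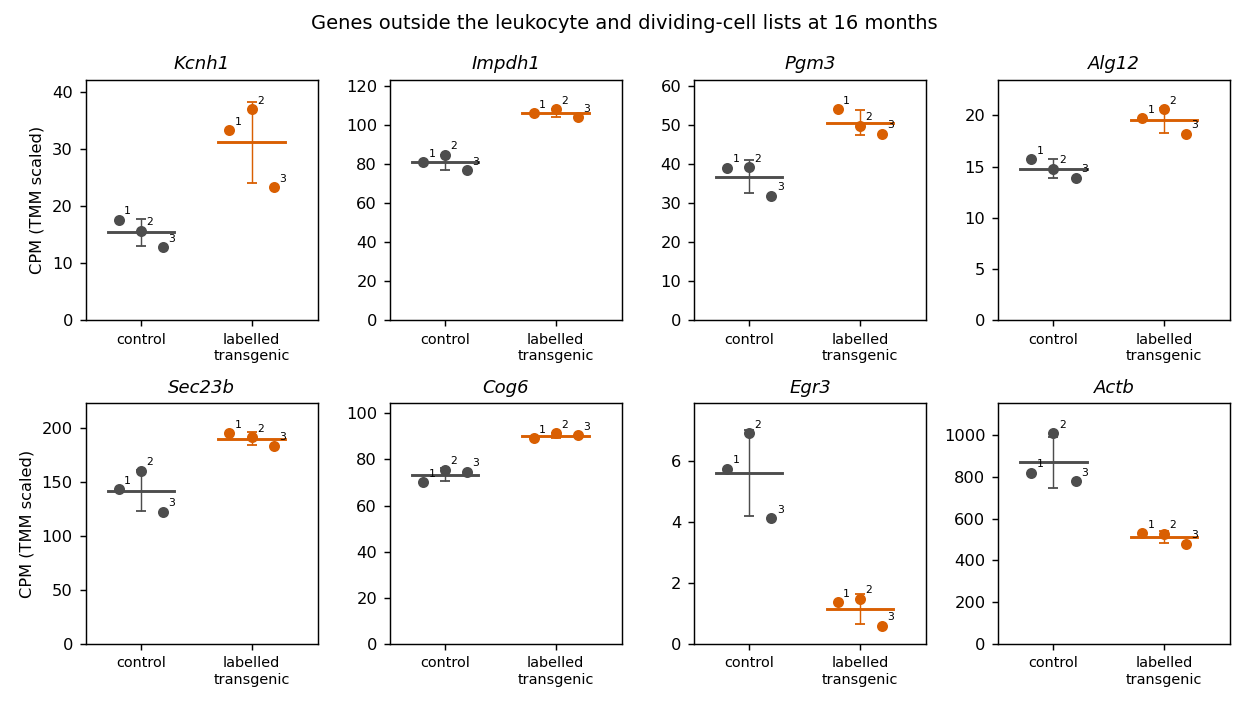
CPM in each 16-month library for 8 genes outside the leukocyte and dividing-cell lists; points are libraries with their replicate number, bars the mean and whiskers the SD of 3 libraries. Kcnh1, Impdh1, Pgm3, Alg12, Sec23b and Cog6 are higher in all 3 labelled transgenic libraries, and Egr3 and Actb are lower in all 3.

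Several of the higher genes belong to the early secretory pathway, the route from the ribosome at the endoplasmic reticulum through the Golgi apparatus. This group was defined after the values were seen, prompted by Sec23b, Cog6, Scfd1, Gorasp1, Alg12, Piga and Pgm3 among the smallest p-values, so its direction is a description and supports nothing. All 12 families of this route that were looked at are given. Together they held 153 genes, of which 131 were higher and 22 lower, with a median of 0.19. Before adjustment, 20 were higher and 2 lower at a p under 0.05, where 1.82% and 9.37% of all genes were, and 56 were higher without overlap, where 7.46% of all genes were. For genes with a mean of at least 10 CPM these shares were 3.02% and 4.5%, and 11.7% without overlap. None rose in the fit with pairs.

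The size of the shift differed little among most families. The medians were 0.21 for the Sec proteins of the translocon and COPII coat, 0.23 for the COPI coat, 0.21 for the COG tethering complex and 0.15 for the TRAPP complex. They were 0.26 for the signal recognition particle and its partners, 0.23 for oligosaccharyltransferase, 0.17 for the Alg enzymes of N-glycan assembly and 0.27 for Golgi matrix proteins. All members of COPI (9), COG (8) and oligosaccharyltransferase (8) were higher. The p24 cargo receptors gave 0.13, the Arf GTPases and their regulators 0.16, and the hexosamine and dolichol sugar genes 0.18. The 20 genes of GPI anchor assembly gave 0.02, with 13 higher and 7 lower, so this family did not share the shift, although Piga, the catalytic subunit of its first step, had 9.58, 8.14 and 9.18 CPM in the labelled transgenic libraries and 6.59, 7.16 and 6.40 CPM in the controls. Without the GPI anchor and sugar families, the other 10 families gave a median of 0.20 over 121 genes.

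**Figure D5:**
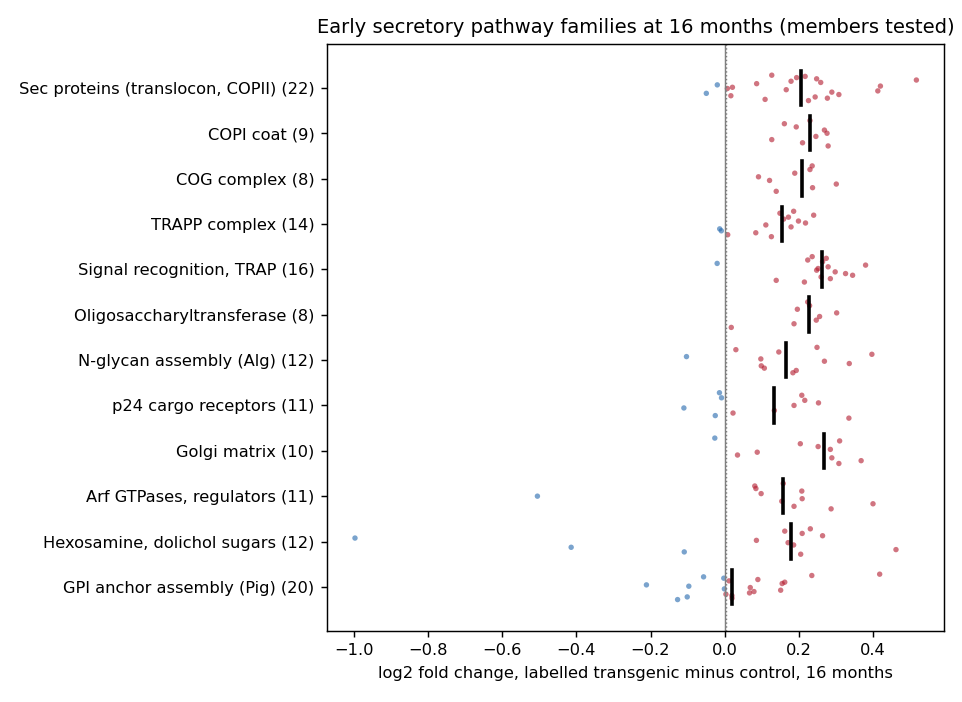
Log2 fold change (labelled transgenic minus control, 16 months) of the tested members of 12 families of the early secretory pathway, 1 point per gene, with the black bar at the family median. Medians lie between 0.13 and 0.27 except for GPI anchor assembly, at 0.02.

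Sec23b, a subunit of the COPII coat (chromosome 2, 144556229 to 144590749), had 143, 160 and 122 CPM in the controls and 195, 191 and 183 CPM in the labelled transgenic libraries, a log2 fold change of 0.42 ± 0.13 (SE). Cog6, of the COG complex, had 70.1, 75.5 and 74.6 CPM against 89.2, 91.5 and 90.4 CPM. Gorasp1, a Golgi stacking protein, had 36.5, 34.8 and 33.8 CPM against 44.9, 43.3 and 47.5 CPM. The 3 genes did not overlap between the groups, and their edgeR adjusted p-values were 0.163, 0.148 and 0.119, and 0.183, 0.249 and 0.22 with pairs. The mean log2 CPM of the 153 genes was 5.56, 5.62 and 5.48 in the controls and 5.70, 5.73 and 5.68 in the labelled transgenic libraries, so the groups did not overlap. With total count scaling the median was 0.10, where that over all genes was -0.08, and without control replicate 3 it was 0.13. Acinar cells are rich in this machinery, and the summed acinar level overlapped between the groups, at 26000 to 109000 CPM in the controls and 26700 to 73800 CPM in the labelled transgenic libraries. With the acinar level as a covariate the median was 0.19. The acinar cells' part in the shift was not tested.

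Genes of the endoplasmic reticulum stress response lay to the same side, with 21 of 24 higher, a median of 0.18 and 0 called with pairs. At an unadjusted p under 0.05, 2 were higher, where 1.82% of all genes and 3.02% of those with at least 10 CPM were. The mean log2 CPM of the 24 was 7.87, 8.05 and 7.66 in the controls and 8.05, 8.15 and 7.95 in the labelled transgenic libraries, with overlap. The list median was 0.29 without control replicate 2 and 0.36 with the leukocyte covariate. The response element of this pathway, searched as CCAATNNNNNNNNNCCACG, which contains a CCAAT box, was in 8 of 21 of its genes (38.1%), in 1 of 128 early secretory genes (0.781%) and in 0.13% of all genes. The early secretory gene was Alg12, a mannosyltransferase of N-glycan assembly, with 15.7, 14.8 and 13.9 CPM in the controls and 19.7, 20.6 and 18.2 CPM in the labelled transgenic libraries, without overlap (edgeR adjusted p = 0.12, and 0.164 with pairs). Its promoter (chr15:88819429-88819568, minus strand) is shown with the element in capitals.
Alg12: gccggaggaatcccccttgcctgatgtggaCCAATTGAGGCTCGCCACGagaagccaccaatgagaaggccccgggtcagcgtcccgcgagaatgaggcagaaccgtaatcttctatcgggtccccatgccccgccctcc

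Among the other lists, ribosomal protein genes were lower in all 30 cases, with a median of -0.30. Of these, 0 passed with pairs. At an unadjusted p under 0.05, 7 were lower, where 9.37% of all genes were. Without overlap, 17 were lower, where 10.3% of all genes were. The mean log2 CPM of the 30 was 8.09, 8.5 and 8.22 in the controls and 7.98, 8.08 and 7.86 in the labelled transgenic libraries, without overlap. The median was -0.17 without control replicate 2, and with the leukocyte covariate it turned to 0.17. Oxidative phosphorylation genes gave a median of 0.11 (26 of 28 higher) and tricarboxylic acid cycle and shuttle genes 0.11 (20 of 23 higher). Over genes with a mean of at least 10 CPM the median was 0.052. The 13 genes of the mitochondrial genome lay to the other side, with 11 lower, 2 higher and a median of -0.12. Stellate cell and matrix genes gave -0.48, but 0.30 without control replicate 2, and complement genes gave -0.97, but -0.0041 without it. That library was the highest in both lists.

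At 10 months the same contrast, with 2 libraries per genotype from the other batch, gave medians of 0.44 for the general leukocyte list, 0.63 for mitosis and 0.02 for the early secretory group. The acinar genes stood apart there, with all 28 higher and a median of 1.95, against 0.036 at 16 months. The test of the difference between the ages called 0 genes by edgeR (0.0% in each direction), with 457 higher (2.38%) and 1302 lower (6.77%) at an unadjusted p under 0.05, and the smallest adjusted p was 0.186. DESeq2 called 269. With the acinar level as a covariate, 86 were higher and 407 lower at an unadjusted p under 0.05. The part of the acinar genes in the difference between ages was not tested. Levels of some of these genes were low at 10 months. Mki67 of the mitosis list had 0.792 and 1.34 CPM in the controls and 1.86 and 1.54 CPM in the labelled transgenic libraries. Pou2af1 had 0.348 and 0.934 CPM against 1.43 and 3.38 CPM. From these low levels the 10-month log2 fold change of Pou2af1 was 1.74, against -2.54 at 16 months. The edgeR adjusted p of its difference between the ages was 0.186. Age and batch cannot be told apart in this difference.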

How the data were processed

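Per the labels' protocols, RNA of freshly isolated islets went into libraries through a stranded mRNA kit. The tools listed in the submitters' processing notes are featureCounts 2.0.0, STAR 2.7.11a and Trim Galore 0.6.10, and the builds are GRCm38 and mm10. The strand setting and annotation are not given in the sources used here. The authors deposited raw read counts per gene for all 10 libraries, and the values are whole numbers. Of 56262 identifiers, 55141 matched GENCODE vM21 without the version and 54349 with it.

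The members, the 52 lists (938 genes, 913 tested), the tests and the alternatives were chosen with earlier results of these data known. The 13 symbol families (12 secretory, and Kcnh) were added after the values were seen, as were the 9 motifs reported.

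Counts were tested with edgeR 4.0.16 (R 4.3.3; TMM, filterByExpr, robust quasi-likelihood F test), with all 10 libraries in 1 fit of 4 group means, and called at a Benjamini-Hochberg adjusted p of 0.05. There were 23 fits: this one and 22 alternatives, among them DESeq2 1.42.0, limma 3.58.1 (voom), other scalings and filters, covariates, the replicate block and leaving out each library. CPM values are TMM scaled; list levels use log2 CPM with a prior count of 2. At 16 months, deviations from the group means correlated at 0.276, 0.242 and 0.186 for libraries with the same number and from -0.241 to 0.00668 for others, so the numbers were taken as pairs. The labels do not state such pairs, and the block covered the 10-month libraries too. No 2 libraries were copies. The tests were run on simulated data first.

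Named genes were the sirtuins and hormones; the 12 smallest p per direction averaging at least 1 log2 CPM; up to 4 per list; and 15 per direction with a mean of at least 10 CPM, outside the leukocyte, proliferation and inflammation lists and within ±0.5 in correlation with the leukocyte list. Predicted genes, pseudogenes and receptor segments were counted, not named, except where stated.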

Additional observations from a re-analysis of the deposited data

How the results depend on the processing

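The count of genes called at 16 months was 0 by edgeR and stayed 0 with RLE scaling, the stricter filter and the leukocyte covariate. It was 879 with DESeq2, 352 with total count scaling, 222 with limma-voom, 426 with no filter, 288 with the replicate block, 1 with the 16-month libraries alone, 12 with those and the block (all 12 lower), and 1 with the acinar covariate. Leaving out 1 library gave 0 to 955 genes. The value of 955 came without control replicate 1, and without control replicate 3 it was 4. With the replicate block and without control replicate 2, an alternative chosen after seeing the data, it was 0. In that alternative the block absorbs labelled transgenic replicate 2, so that library drops out as well. The count for the difference between ages was 0, but 269 with DESeq2 and 69 with no filter, 0 with the replicate block, and 0 to 1408 when 1 library was left out, the highest without labelled transgenic replicate 1 at 10 months and 156 without control replicate 1. The cause of these differences was not tested.

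With the leukocyte covariate the general leukocyte median moved to -0.11 and the mitosis median to -0.883; it is built from the leukocyte list itself. The early secretory median of 0.187 was 0.0998 with total count scaling and 0.132 to 0.202 with 1 library left out (0.201 without control replicate 2). With the leukocyte covariate the sign changed for Pdx1 at -0.0539, Ins1 at 0.396, Dynlt1a at -0.206 and Arhgdib at 0.097. Ppy was 0.207 with limma-voom and 0.418 with the block and without control replicate 2, and ran from -0.666 to 0.072 with 1 library left out. Sst was 0.0917 with limma-voom, 0.0229 with the replicate block, 0.0116 with the 16-month libraries alone and the block, and 0.138 with the block and without control replicate 2. It ran from -0.224 to 0.265 with 1 library left out. Sirt6 was 0.104 with the block and without control replicate 2, and ran from -0.0549 to 0.087 with 1 library left out, where leaving out a 10-month library gave 0.000415, 0.000881, 0.0135 and 0.0136. Of the 53 genes followed through the alternatives, these 7 alone changed sign in any. Of the 7, Arhgdib was called in some fits, among them the replicate block, and the other 6 in none.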
